A study of Mus musculus with 16 samples.

Results

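The genes described here are 7 grouped as pericentral, that is, tied to the hepatocytes around the central vein of the liver lobule: the cytochrome P450 genes Cyp2e1, Cyp1a2 and Cyp2a5, the vitamin C genes Rgn and Gulo, the dicarboxylate carrier gene Slc13a3, and Ahr, the gene of the aryl hydrocarbon receptor. Where in the lobule each is made was not measured in these bulk samples. They were chosen by name, and every probe set annotated to a single one of these symbols was read. The array held such probe sets for 6 of the 7 genes, 10 probe sets in all, out of 18193 genes and 34945 probe sets with a single symbol. Slc13a3 had 4 probe sets, Ahr had 2, and Cyp2e1, Cyp1a2, Gulo and Rgn had 1 each. Cyp2a5 had none, because its probe set is annotated to Cyp2a4 as well. Where a gene had several, the brightest on average stands for the gene, and the others are given beside it.

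RNA of 16 pieces of liver from male C3H/HeJ mice was measured, 1 Affymetrix array each. Per the series design, all the mice had received a single intraperitoneal dose of 10 or 90 µg/g of the carcinogen diethylnitrosamine when 2 or 6 weeks old, and went on to a diet with or without 0.05% phenobarbital (PB), an activator of the nuclear receptor CAR, 2 weeks later and for 28 to 36 weeks. With PB there were 7 tumours that carried mutated Ctnnb1, which encodes beta-catenin, and 3 control livers (PB controls 4, 5 and 6, by their labels). Without PB there were 3 tumours that carried mutated Ha-ras and 3 control livers (untreated controls 1, 2 and 3). The sample labels instead put PB in the drinking water for 27 weeks, and a protocol text gives 28 days. The controls are thus carcinogen-treated liver too, not liver of untouched mice. Mutation and PB cannot be told apart between the 2 kinds of tumour, since every Ctnnb1 tumour had PB and no Ha-ras tumour did. The labels do not say that the samples of a group came from separate animals, so the p-values measure the spread between these samples.

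Liver tissue is zoned, as blood enters each lobule at the portal tracts and leaves at the central vein. Beta-catenin, when it is not degraded, joins TCF/LEF factors in the nucleus, and this pathway is known to maintain the pericentral programme, in which P450 enzymes, glutamine synthetase (Glul) and several carriers are made. The aryl hydrocarbon receptor is a transcription factor that binds planar aromatic ligands, pairs with ARNT and switches on Cyp1a1, Cyp1a2 and other genes of foreign compound metabolism.

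Values are log2 intensities, as the authors deposited them after RMA (background correction, quantile normalization and summary of probes), and differences and fold changes are between groups on that log2 scale. A gene passed where limma's adjusted p over all 18193 genes was under 0.05, and "rose" and "fell" are kept for genes that passed. The array medians lay between 5.03 and 5.10, and the highest value of an array between 14.91 and 15.11. Intensities at the low end include background, and without detection calls a low value is not read as absent RNA. In PB control 6 the 3′ probe set of Gapdh exceeded its 5′ probe set by 2.70, against -0.15 to 0.32 on the other 15 arrays, a sign of less intact RNA. Without PB control 6, 1337 genes passed in the Ctnnb1 comparison, against 2192 with it, and values without it are given beside several of the results that it moved, not all. Cyp2b10, a CAR target, was on average 12.62 ± 0.18 in PB controls and 7.54 ± 0.76 in untreated controls (SD, n = 3 each). The 5 measured hepatocyte markers averaged 13.36 to 13.77 over the Ctnnb1 tumours, 13.59 to 13.97 over the PB controls, 13.41 to 13.72 over the Ha-ras tumours and 13.61 to 13.77 over the untreated controls.

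For 3 of the genes the RefSeq table of promoters for GRCm38.p6 held the 300 bases around the start of transcription, 250 before it and 50 after. They are shown because they carry, or lack, letters of known binding sites of the factors above. Capitals mark a TCF/LEF motif (CTTTGAA, or TTCAAAG where it lies on the other strand) and a TATA box (TATAAAA).
Cyp2e1: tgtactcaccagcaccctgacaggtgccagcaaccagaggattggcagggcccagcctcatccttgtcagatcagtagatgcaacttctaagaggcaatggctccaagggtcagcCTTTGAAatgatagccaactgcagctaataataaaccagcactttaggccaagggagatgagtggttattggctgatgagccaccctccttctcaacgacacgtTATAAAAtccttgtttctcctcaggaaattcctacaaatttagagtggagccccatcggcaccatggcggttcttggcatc
Cyp1a2: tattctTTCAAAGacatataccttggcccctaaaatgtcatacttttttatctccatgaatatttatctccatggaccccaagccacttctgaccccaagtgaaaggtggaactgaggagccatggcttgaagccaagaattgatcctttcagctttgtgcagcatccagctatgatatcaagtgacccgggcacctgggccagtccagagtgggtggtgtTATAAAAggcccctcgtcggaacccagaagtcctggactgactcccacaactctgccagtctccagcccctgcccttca
Slc13a3: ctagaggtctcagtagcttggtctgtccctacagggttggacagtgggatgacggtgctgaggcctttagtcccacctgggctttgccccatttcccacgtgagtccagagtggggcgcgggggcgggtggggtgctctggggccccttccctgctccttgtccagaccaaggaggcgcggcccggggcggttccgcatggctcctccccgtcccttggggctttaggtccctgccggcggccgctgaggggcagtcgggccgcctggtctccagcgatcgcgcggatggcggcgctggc
The first is chr7:140763569-140763868 on the plus strand, the second chr9:57683606-57683905 on the minus strand, and the third chr2:165473148-165473447 on the minus strand, each written in the direction of the gene. The Cyp2e1 sequence held CTTTGAA at -135 to -129 from the start site and a TATA box at -31 to -25. The Cyp1a2 sequence held the motif on the opposite strand at -244 to -238, and a TATA box at -29 to -23. The Slc13a3 sequence held none of the motifs searched, which were CTTTG followed by AA, AT, TA or TT for TCF/LEF, GCGTG for the core of the AHR response element, and TATAAAA, each on both strands, with no overlap between matches. None of the 3 held GCGTG. Of all 32851 promoters of the same length, 5.14% held CTTTGAA, 16.9% any of the 4 TCF/LEF forms, 32.4% GCGTG and 5.48% TATAAAA. These matches are letters in a window, and no binding was measured here. Gulo, Rgn and Ahr had no entry.

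In Ctnnb1 tumours 3 of the 6 measured genes rose and none fell: Gulo by 2.73-fold, Slc13a3 by 4.16-fold and Ahr by 2.72-fold over PB controls. In Ha-ras tumours none rose and the other 3 fell: Cyp1a2 was 6.13-fold, Rgn 4.22-fold and Cyp2e1 2.66-fold lower than in untreated controls. No gene passed in both. Over all genes, 12% passed in the Ctnnb1 comparison (6.07% higher and 5.97% lower) and 13.5% in the Ha-ras comparison (7.21% higher and 6.33% lower). The median log2 fold change of the 6 genes was 1.03 in the Ctnnb1 comparison, against -0.03 over all genes, and -1.17 in the Ha-ras comparison, against -0.04 over all genes. In bulk tissue, fewer cells of a type and less RNA per cell cannot be told apart.

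**Figure D1:**
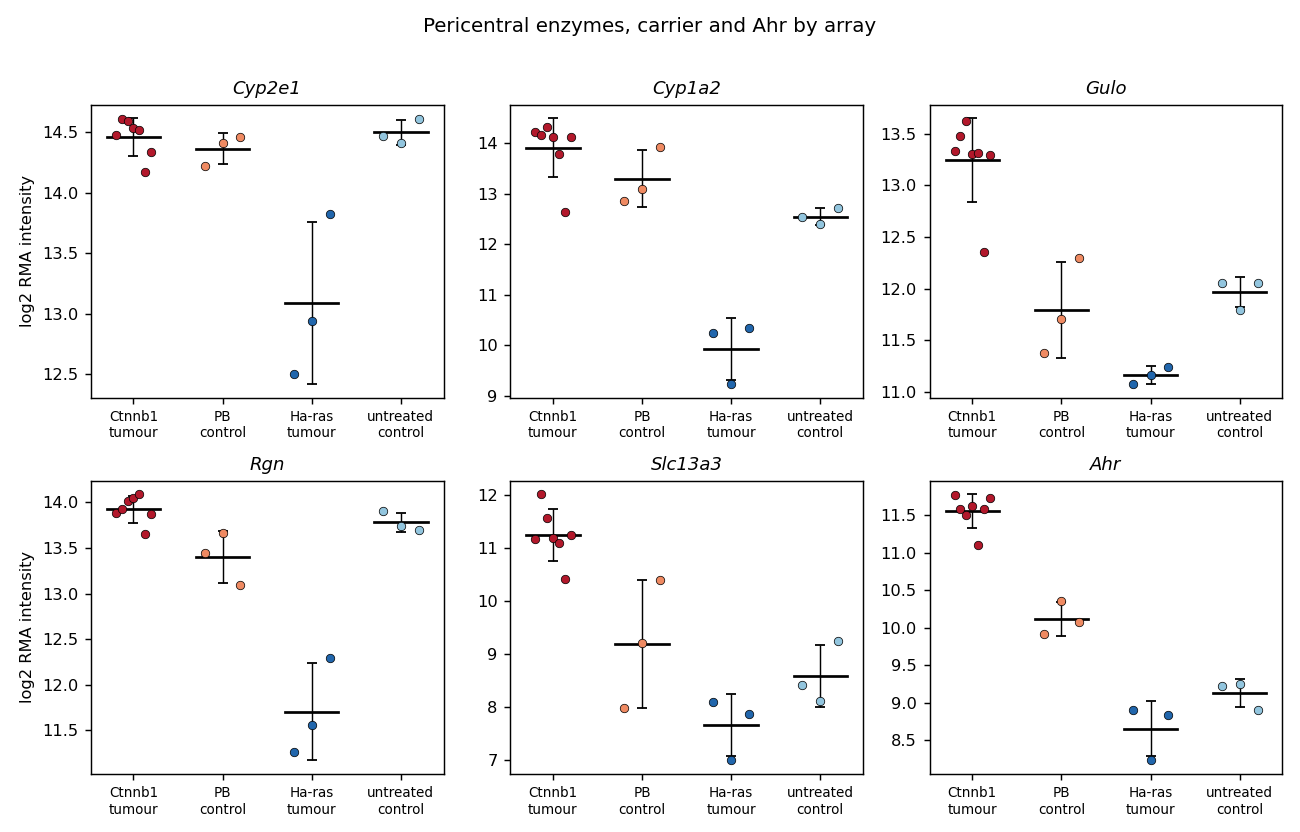
Log2 RMA intensity of the 6 measured genes, 1 panel per gene, on the 16 arrays, with a point per array, a bar at the group mean and whiskers of 1 SD (n = 7 Ctnnb1 tumours and 3 in each other group; the vertical scales differ between panels and do not start at 0). The Ha-ras tumours are the lowest group in every panel. The Ctnnb1 tumours do not overlap their PB controls for Gulo, Slc13a3 and Ahr, but the nearest arrays are only 0.064 apart for Gulo and 0.019 for Slc13a3.

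Cyp2e1 encodes the P450 that oxidises ethanol and paracetamol and is a classic pericentral enzyme. Its level in the 7 Ctnnb1 tumours had a lowest value of 14.17, a median of 14.52 and a highest value of 14.60, against 14.22, 14.41 and 14.46 in the PB controls. In the Ha-ras tumours it was 12.50, 12.94 and 13.82, against 14.47, 14.41 and 14.61 in the untreated controls. The Ctnnb1 tumours thus overlapped their controls, while every Ha-ras tumour lay below every untreated control. The log2 fold change was 0.10 ± 0.19 (SE) in the Ctnnb1 comparison, with a 95% interval of -0.31 to 0.51 and limma's adjusted p = 0.797, and -1.41 ± 0.23 in the Ha-ras comparison, with an adjusted p = 0.00059. Outside the Ha-ras tumours, Cyp2e1 lay 0.39 to 0.89 below the highest value on its array. Whether this limited how far a rise could show was not tested.

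Cyp1a2 encodes the P450 that demethylates caffeine and activates aromatic amines, and it is a known AHR target. It was 12.64 at the lowest, 14.13 at the median and 14.33 at the highest in the Ctnnb1 tumours, against 12.87, 13.10 and 13.93 in the PB controls. It was 10.24, 9.22 and 10.33 in the Ha-ras tumours, against 12.53, 12.39 and 12.71 in the untreated controls. Of the 7 Ctnnb1 tumours, 5 lay above the highest PB control, while tumour 6 lay below all 3 of them and tumour 5 below PB control 6. The Ha-ras tumours were all at least 2 log2 units below every untreated control. The log2 fold change was 0.61 ± 0.33 in the Ctnnb1 comparison (95% interval -0.09 to 1.32, limma's adjusted p = 0.257) and -2.62 ± 0.39 in the Ha-ras comparison (adjusted p = 0.000305). Without Ctnnb1 tumour 6, Cyp1a2 passed in the Ctnnb1 comparison with a log2 fold change of 0.83 (limma's adjusted p = 0.0406). Without PB control 6 and Ctnnb1 tumours 6 and 7 it was 1.14 (adjusted p = 0.0123). Over the fits without a single array it ranged from 0.40 to 0.93, with adjusted p as high as 0.562. It was lowest without PB control 4 and highest without PB control 6, and passed in 1 of these fits. Over the other alternatives it ranged from 0.22 to 1.14, with adjusted p as high as 0.814.

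Rgn encodes regucalcin, also known as SMP30, the gluconolactonase that makes the substrate of GULO, and Gulo encodes L-gulonolactone oxidase, which completes the synthesis of vitamin C in the mouse. Rgn was 13.65 at the lowest, 13.93 at the median and 14.09 at the highest in the Ctnnb1 tumours, against 13.44, 13.66 and 13.10 in the PB controls. In the Ha-ras tumours Rgn was 11.26, 11.55 and 12.30, against 13.90, 13.75 and 13.69 in the untreated controls. The Ctnnb1 tumours overlapped PB control 5 by a single tumour, and the Ha-ras tumours lay below every other array. The log2 fold change of Rgn was 0.52 ± 0.18 in the Ctnnb1 comparison, short of the threshold (limma's adjusted p = 0.0637), and -2.08 ± 0.21 in the Ha-ras comparison (adjusted p = 7.44e-06). The first is a borderline value: it passed without PB control 5 (0.65, adjusted p = 0.046). It also passed without Ha-ras tumour 1 (adjusted p = 0.04) and without Ha-ras tumour 3 (adjusted p = 0.0155), which enter through the shared spread. Over the fits without a single array it ranged from 0.37 to 0.65, with limma's adjusted p as high as 0.299. It was lowest without PB control 6, the PB control with the lowest Rgn.

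For Gulo the larger difference lay in the Ctnnb1 tumours. It was 12.36 at the lowest, 13.31 at the median and 13.62 at the highest in the Ctnnb1 tumours, against 11.38, 11.71 and 12.29 in the PB controls. It was 11.08, 11.17 and 11.25 in the Ha-ras tumours, against 12.06, 11.80 and 12.05 in the untreated controls. Neither pair of groups overlapped, and the narrowest gap was 0.064, between Ctnnb1 tumour 6 and PB control 6. Gulo rose by 1.45 ± 0.22 in the Ctnnb1 tumours (limma's adjusted p = 0.000758), and by 1.70 without PB control 6. In the Ha-ras tumours its log2 fold change was -0.80 ± 0.26, which missed the threshold at an adjusted p = 0.0543. That value passed in 3 of the 16 fits that left out a single array, those without Ctnnb1 tumour 6 (adjusted p = 0.00708), PB control 4 (0.045) or PB control 6 (0.0303), although none of these arrays belongs to the Ha-ras comparison.

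The enzymes before and around them on the pathway were read as well. Of 10 measured genes of vitamin C synthesis and transport, Rgn and Gulo included, 3 rose and none fell in the Ctnnb1 tumours, while 1 rose and 2 fell in the Ha-ras tumours, and the list's median log2 fold changes were 0.22 and -0.09. Ugdh, which makes UDP-glucuronate, rose by 0.65 ± 0.13 in the Ctnnb1 tumours (limma's adjusted p = 0.00433) and fell by 0.60 in the Ha-ras tumours (adjusted p = 0.0142), a call that was lost without Ha-ras tumour 2 or 3 or untreated control 1. Ugdh was also higher in PB controls than in untreated controls, at 12.66 ± 0.29 against 11.78 ± 0.15 (SD, n = 3 each, limma's adjusted p = 0.0315), a call lost in 5 of the fits without a single array. Akr1a1, whose aldehyde reductase makes L-gulonate, lay between 13.19 and 13.75 on all 16 arrays by its brightest probe set, which passed in neither tumour comparison. Of the 3 other probe sets of Akr1a1, 2 passed as lower in the Ha-ras tumours in the fit over all probe sets, with log2 fold changes of -0.42 (limma's adjusted p = 0.0225) and -0.46 (adjusted p = 0.0121). All 3 passed for the difference between the tumour effects, at 0.48 to 0.64 (adjusted p = 0.0488, 0.0227 and 0.0173). Slc23a1, a vitamin C uptake carrier, rose by 0.74 ± 0.21 in the Ctnnb1 tumours (limma's adjusted p = 0.0323), but did not pass without PB control 6 (0.50, adjusted p = 0.208) or in 5 other fits that left out an array. Gusb, the lysosomal beta-glucuronidase, rose by 0.74 ± 0.15 in the Ha-ras tumours (limma's adjusted p = 0.00322), and a dimmer probe set of Gusb passed as higher in the Ctnnb1 tumours too (0.90, adjusted p = 0.00467 over all probe sets), where the brighter one was 0.02.

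**Figure D2:**
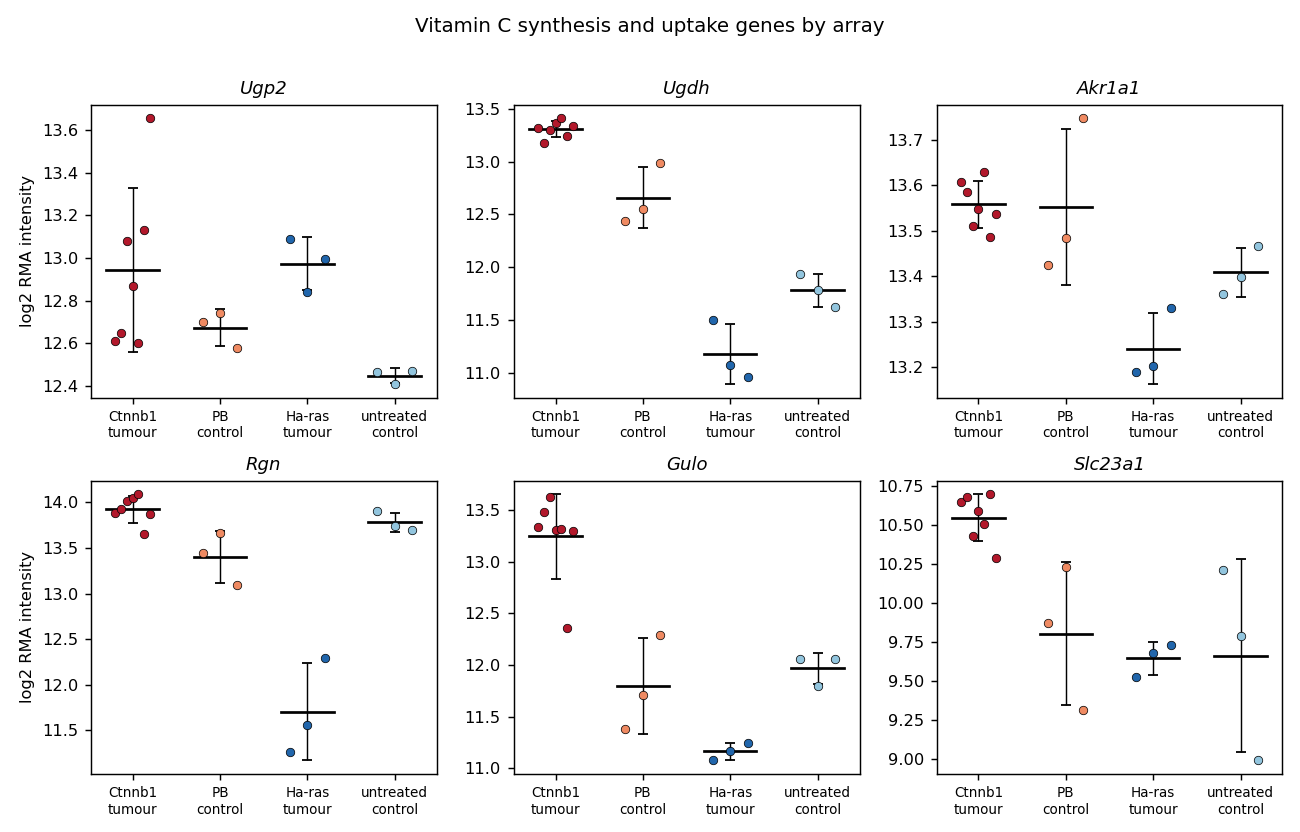
Log2 RMA intensity of 6 genes of vitamin C synthesis and uptake on the 16 arrays, with a point per array, a bar at the group mean and whiskers of 1 SD (n = 7 Ctnnb1 tumours and 3 in each other group; the scales differ between panels). Ugdh and Gulo are highest in the Ctnnb1 tumours, Rgn is low in the Ha-ras tumours alone, and the probe set of Akr1a1 shown, the brightest of 4, lies between 13.19 and 13.75, while 2 of the others passed as lower in the Ha-ras tumours.

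Slc13a3 encodes NaDC3, a sodium-coupled carrier that takes up succinate, alpha-ketoglutarate and related dicarboxylates. Its brightest probe set was 10.41 at the lowest, 11.20 at the median and 12.02 at the highest in the Ctnnb1 tumours, against 7.98, 9.20 and 10.39 in the PB controls. It was 8.10, 6.99 and 7.87 in the Ha-ras tumours, against 8.41, 8.11 and 9.25 in the untreated controls. The PB controls spread over more than 2 log2 units, the widest spread of the 6 genes in any control group, and neither pair of groups overlapped, although Ctnnb1 tumour 6 lay only 0.019 above PB control 6. Slc13a3 rose by 2.06 ± 0.42 in the Ctnnb1 tumours (limma's adjusted p = 0.00536), and its log2 fold change in the Ha-ras tumours was -0.94 ± 0.50 (adjusted p = 0.258). The rise depended in size on the controls, at 1.45 without PB control 4 and 2.66 without PB control 6, and passed both times.

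The second probe set of Slc13a3 gave the same directions at a lower level. It was 9.03 at the lowest, 9.92 at the median and 10.62 at the highest in the Ctnnb1 tumours, against 6.96, 7.88 and 8.20 in the PB controls, and 6.42, 5.78 and 6.79 in the Ha-ras tumours, against 7.38, 7.23 and 8.04 in the untreated controls. In the fit over all 34945 probe sets its log2 fold change was 2.24 ± 0.32 in the Ctnnb1 comparison (limma's adjusted p = 0.000625) and -1.22 ± 0.38 in the Ha-ras comparison (adjusted p = 0.054). The other 2 probe sets lay between 2.99 and 4.18 on all arrays, at the low end of the scale, and passed in no comparison. Across the 9 measured genes of the SLC13 family and other di- and tricarboxylate carriers, Slc13a3 was the 1 that rose in the Ctnnb1 tumours. Slc13a2, a related dicarboxylate carrier, fell there by 1.26 (limma's adjusted p = 0.000192), at 5.09 ± 0.19 in the Ctnnb1 tumours (SD, n = 7) and 6.34 ± 0.30 in the PB controls (SD, n = 3). Its level in the Ctnnb1 tumours was near the array medians of 5.03 to 5.10, and the part of background in that level was not tested. In the Ha-ras tumours Slc26a1 fell by 1.29 (adjusted p = 0.012) and Slc13a5, the citrate carrier, by 0.64 (adjusted p = 0.0251), and each of these calls was lost in fits without a single array.

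Ahr was ordered without overlap across all 4 groups. Its brighter probe set was 11.09 at the lowest, 11.58 at the median and 11.77 at the highest in the Ctnnb1 tumours, against 9.91, 10.36 and 10.07 in the PB controls. It was 8.90, 8.23 and 8.83 in the Ha-ras tumours, against 9.23, 9.25 and 8.91 in the untreated controls. The Ctnnb1 tumours were highest, then the PB controls, then the untreated controls, and the Ha-ras tumours lowest, where the last step was a gap of 0.0019 between the nearest arrays. Ahr rose by 1.44 ± 0.16 in the Ctnnb1 tumours (limma's adjusted p = 0.000105), and its log2 fold change in the Ha-ras tumours was -0.47 ± 0.19 (adjusted p = 0.127). The second Ahr probe set lay between 4.96 and 6.21 on all arrays and passed in no comparison, with a log2 fold change of 0.31 ± 0.20 in the Ctnnb1 comparison (adjusted p = 0.361).

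The genes around the receptor were compared with it. Of 8 measured genes of AHR signalling, Ahr included, Ahr was the 1 that rose in the Ctnnb1 tumours and none fell, and in the Ha-ras tumours none passed. The median log2 fold changes of that list were 0.10 and 0.09. Arnt, the partner of the receptor, averaged 8.39 ± 0.16 in the Ctnnb1 tumours (SD, n = 7) and 8.65 ± 0.77 in the PB controls (SD, n = 3) by its brightest probe set, and did not pass. Of its 4 other probe sets, 1 that averaged 4.53 over all arrays, at the low end of the scale, passed as higher in the Ctnnb1 tumours, with a log2 fold change of 0.42 against -0.27 for the brightest (limma's adjusted p = 0.0158 and 0.502 in the fit over all probe sets). Of 8 measured AHR target genes, Nqo1 rose in the Ctnnb1 tumours and Cyp1a2 fell in the Ha-ras tumours, with list medians of -0.01 and 0.01. Nqo1, a quinone reductase that NRF2 controls too, averaged 8.48 ± 0.92 in the Ctnnb1 tumours (SD, n = 7) and 6.52 ± 0.43 in the PB controls (SD, n = 3; adjusted p = 0.0238 by limma), and it no longer passed without PB control 4 (adjusted p = 0.0578) or PB control 6 (0.113). Cyp1a1, the most inducible AHR target, was 5.45 at the lowest, 6.44 at the median and 7.09 at the highest in the Ctnnb1 tumours, against 5.21, 5.26 and 10.22 in the PB controls. The 10.22 belonged to PB control 6, the array with the raised Gapdh gap, which also had the highest Cyp2e1, Cyp1a2, Gulo and Slc13a3 and the lowest Rgn of the PB controls. Without that array, the log2 fold change of Cyp1a1 in the Ctnnb1 comparison was 1.18 (limma's adjusted p = 0.06), against -0.48 with it (adjusted p = 0.744). Tiparp and Cyp1b1, also AHR targets, passed in neither tumour comparison.

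**Figure D3:**
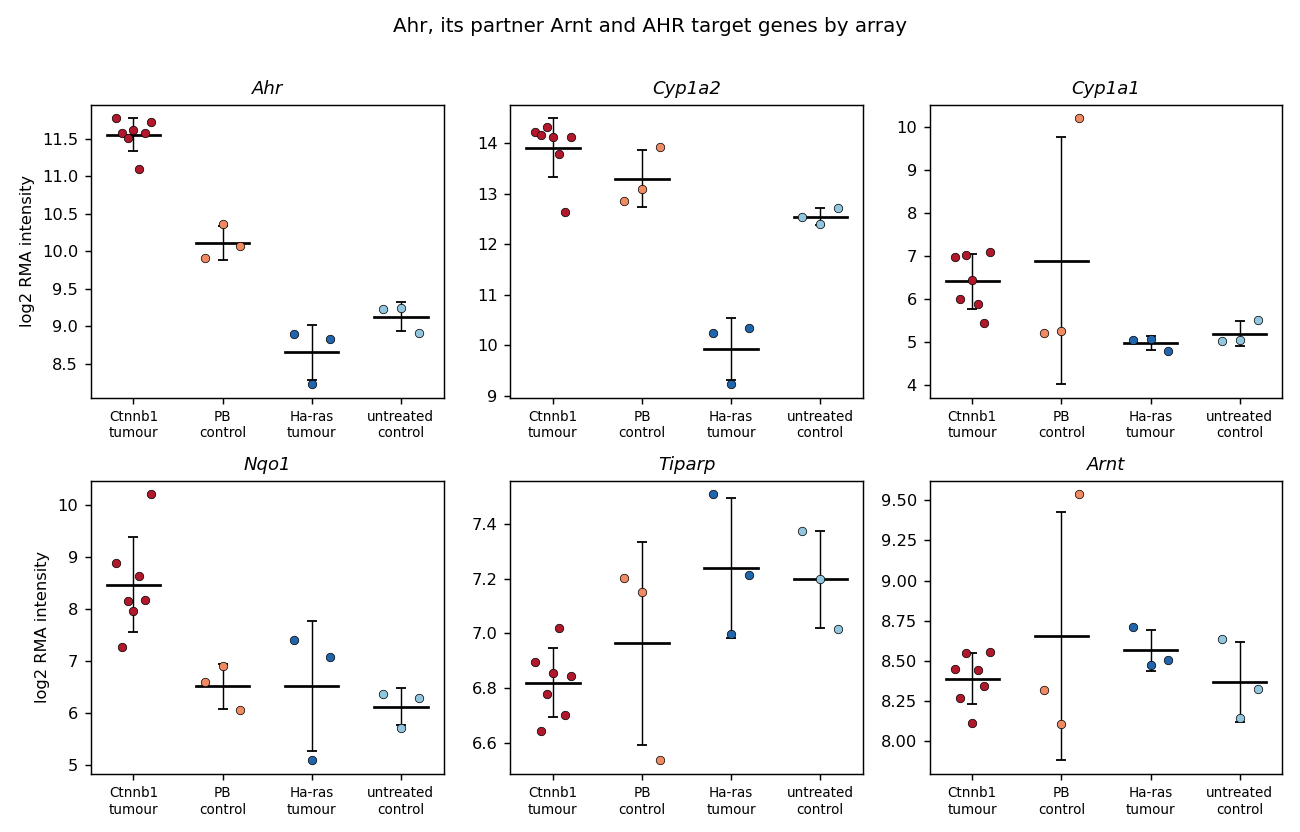
Log2 RMA intensity of Ahr, Cyp1a2, Cyp1a1, Nqo1, Tiparp and Arnt on the 16 arrays, with a point per array, a bar at the group mean and whiskers of 1 SD (n = 7 Ctnnb1 tumours and 3 in each other group; the scales differ between panels). The 4 groups do not overlap for Ahr, and a single PB control stands at 10.22 for Cyp1a1.

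The tumour effects themselves differed for all 6 genes. In the interaction of tumour and treatment group, which subtracts the change in Ha-ras tumours from that in Ctnnb1 tumours and so rests on all 4 groups, every one of the 6 passed with a higher value in the Ctnnb1 arm, where 2.14% of all genes passed as higher, 3.29% as lower and 5.43% in all. The difference in log2 fold change was 3.23 ± 0.52 for Cyp1a2 (limma's adjusted p = 0.00127), 2.99 ± 0.65 for Slc13a3 (adjusted p = 0.0124) and 2.60 ± 0.27 for Rgn (adjusted p = 3.22e-05). It was 2.25 ± 0.34 for Gulo (adjusted p = 0.000905), 1.92 ± 0.25 for Ahr (adjusted p = 0.000276) and 1.51 ± 0.30 for Cyp2e1 (adjusted p = 0.00648). All 6 passed in each of the 16 fits that left out a single array. The difference for Slc13a3 ranged from 2.39 without PB control 4 to 3.59 without PB control 6.

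How this difference divided between the 2 kinds of tumour varied among the genes. For Cyp2e1, Cyp1a2 and Rgn most of it lay in the Ha-ras tumours, and for Gulo, Slc13a3 and Ahr most of it lay in the Ctnnb1 tumours. Whether the 6 genes differed from each other in either comparison was not tested. Every one of the 6 was lower in all 3 Ha-ras tumours than in all 3 untreated controls, a separation that 18.5% of all genes showed in that direction, and 3 of the 6 were higher in all 7 Ctnnb1 tumours than in all PB controls, which 5.96% of all genes showed.

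**Figure D4:**
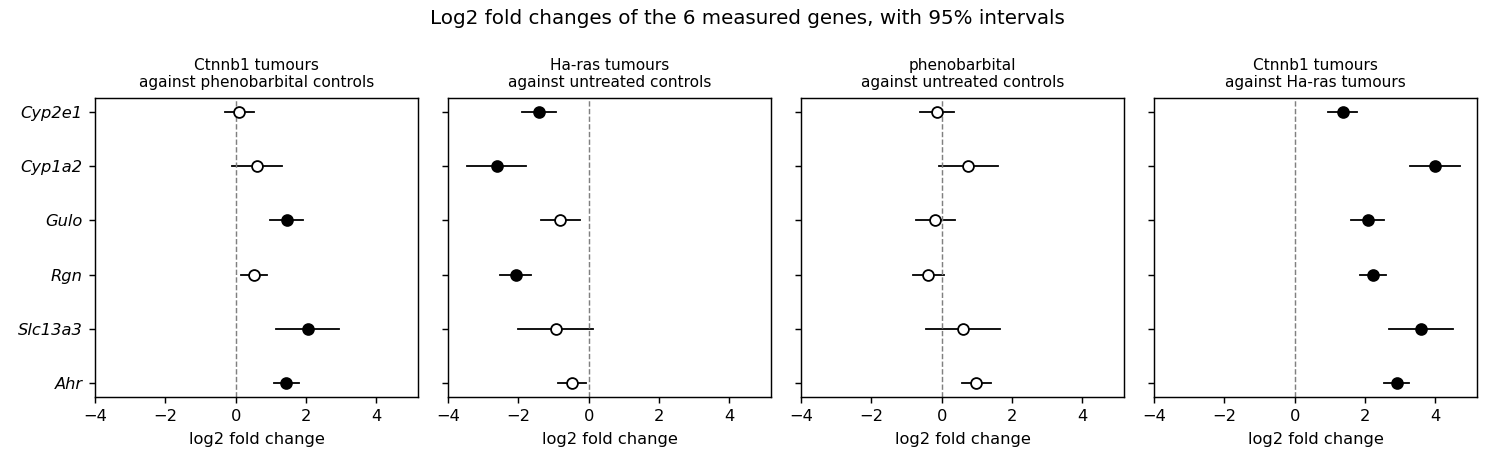
Log2 fold changes of the 6 measured genes (points) with 95% intervals (lines) in 4 comparisons, the first-named group over the second, with filled points for genes that passed at an adjusted p under 0.05. Filled points are Gulo, Slc13a3 and Ahr in the Ctnnb1 comparison, Cyp2e1, Cyp1a2 and Rgn in the Ha-ras comparison, none between the control groups, and all 6 between the tumours.

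Placed side by side, the Ctnnb1 tumours exceeded the Ha-ras tumours for all 6 genes, with no overlap of arrays for any of them, where 7.21% of all genes passed as higher, 7.9% as lower and 15.1% in all, and 7.6% were higher on every array. This comparison shares its tumours with those above and adds the difference between PB and untreated controls. In it, as in the difference between the tumour effects, mutation and PB cannot be told apart. It was largest for Cyp1a2, at 15.8-fold (log2 3.98 ± 0.33, limma's adjusted p = 5.34e-07), and for Slc13a3, at 12.1-fold (log2 3.59 ± 0.42, adjusted p = 2.07e-05). Ahr followed at 7.47-fold (log2 2.90 ± 0.16, adjusted p = 7.05e-09), and Cyp2e1 was smallest at 2.59-fold (log2 1.37 ± 0.19, adjusted p = 0.000119). Gulo and Rgn were 4.22-fold and 4.66-fold higher in the Ctnnb1 tumours.

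Between PB and untreated controls none of the 6 genes passed by limma, where 0.214% of all genes did (0.132% higher and 0.0824% lower), 39 in all, and 1 of the 6 and 2480 of all genes had an unadjusted p under 0.05. That gene was Ahr, which was 10.11 ± 0.23 in PB controls and 9.13 ± 0.19 in untreated controls (SD, n = 3 each), with no overlap. Its log2 fold change of 0.99 ± 0.19 fell just short of the threshold at limma's adjusted p = 0.0505, and the call turned with small changes of the fit, passing for example without Ctnnb1 tumour 5 (adjusted p = 0.0437) or Ha-ras tumour 2 (0.0335), which enter through the shared spread. A separation of all PB controls above all untreated controls was shown by 9.4% of all genes, and among the 6 genes by Ahr and Cyp1a2, where the log2 fold change of Cyp1a2 was 0.75 ± 0.39 (limma's adjusted p = 0.415). Rgn was lower in all 3 PB controls, as were 9.44% of all genes, at 13.40 ± 0.28 against 13.78 ± 0.11 in untreated controls (SD, n = 3 each, adjusted p = 0.439 by limma). For Cyp2e1, Gulo and Slc13a3 the controls overlapped, with log2 fold changes of -0.13, -0.18 and 0.60. These values share the PB controls with the Ctnnb1 comparison and the untreated controls with the Ha-ras comparison.

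The order of the group means differed among the genes. Ahr and Cyp1a2 were ordered as Ctnnb1 tumours, PB controls, untreated controls and Ha-ras tumours, where the Ctnnb1 tumours and PB controls overlapped for Cyp1a2. Slc13a3 had the same order, with overlap between the 2 kinds of control. For Gulo and Rgn the untreated controls came second, overlapping the PB controls for Gulo and the Ctnnb1 tumours for Rgn. For Cyp2e1 the untreated controls came first, by 0.04 over the Ctnnb1 tumours, and all groups except the Ha-ras tumours overlapped their neighbours.

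The 7 Ctnnb1 tumours were not alike. Tumour 6 was the lowest of them for Cyp2e1, Cyp1a2, Gulo, Slc13a3 and Rgn, but not for Ahr, where tumour 5 was lowest. The mean of 6 pericentral markers (Glul, Oat, Slc1a2, Rhbg, Axin2 and Lgr5) was 8.14 in tumour 6, against 9.93 to 11.46 in the other Ctnnb1 tumours and 8.09 to 9.60 in the PB controls. The mean of the 4 measured periportal markers was 8.03 to 10.49 over the Ctnnb1 tumours, against 12.55 to 13.05 over the PB controls, and all 4 fell. The periportal mean was lower in the Ha-ras tumours too, at 11.17 to 12.21, against 12.79 to 13.03 over the untreated controls. There none of the 4 passed, and their median log2 fold change was -1.06. Tumour 6 thus lay within the range of the PB controls for the mean of the pericentral markers and for Rgn, and below it for Cyp2e1 and Cyp1a2. Single markers could differ from that mean. In tumour 6 Axin2 was 6.84, below the PB controls at 7.09, 7.07 and 7.76, while Glul was 12.07, within theirs at 11.21, 12.79 and 13.54. For Gulo and Slc13a3 it lay 0.064 and 0.019 above the highest PB control, and its Ahr of 11.58 lay 1.22 above it.

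Other pericentral genes gave a frame for the 6. Of 17 measured (Glul, Axin2 and Cyp7a1 among them, a list chosen with earlier results of these data known), 7 rose and none fell in the Ctnnb1 tumours, and 1 rose and 9 fell in the Ha-ras tumours, with median log2 fold changes of 1.0 and -1.61. Prodh, the proline dehydrogenase, had a log2 fold change of 0.23 ± 0.45 in the Ctnnb1 tumours (limma's adjusted p = 0.802) and a fall of 3.57 in the Ha-ras tumours (adjusted p = 0.000305). Cldn14, a tight junction gene, was the 1 that rose in the Ha-ras tumours, by 1.40 ± 0.20 (limma's adjusted p = 0.000179). By its brightest probe set Glul passed in neither comparison, at 1.08 ± 0.44 (adjusted p = 0.126 by limma) and -1.34 ± 0.53 (adjusted p = 0.11), but these calls turned with the fit. Its other probe set, which averaged 11.23 over all arrays, passed in the Ctnnb1 comparison with a log2 fold change of 2.34 (limma's adjusted p = 0.0406 over all probe sets) and did not in the Ha-ras comparison (-1.96, adjusted p = 0.151). The brightest passed in the Ctnnb1 comparison without tumour 6 (1.34, adjusted p = 0.0261), with array weights (1.64, adjusted p = 0.0186) and without PB control 6 and tumours 6 and 7 (1.87, adjusted p = 0.00477). Without PB control 6 alone it was 1.59 and did not pass. In the Ha-ras comparison Glul passed with only the arrays compared (adjusted p = 0.015), without Ctnnb1 tumour 6 (0.0425), without PB control 4 (0.0488) and without the 3 arrays together (0.0124), each at the same log2 fold change of -1.34 by limma.

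**Figure D5:**
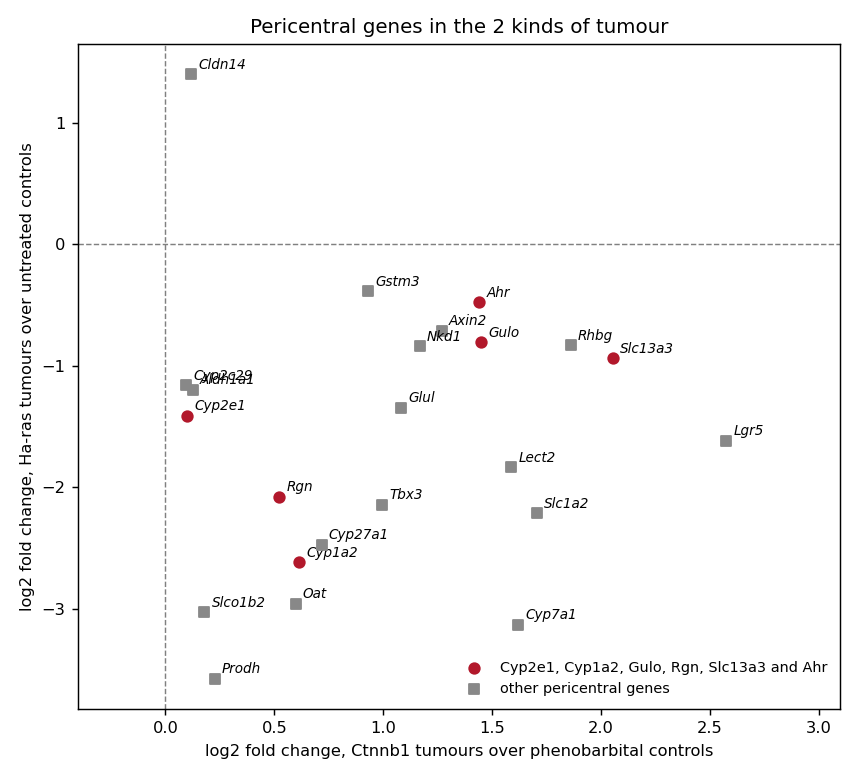
Log2 fold change in Ctnnb1 tumours over PB controls (x axis) and in Ha-ras tumours over untreated controls (y axis) for the 6 measured genes (circles) and 17 other pericentral genes (squares), which share no arrays between the axes. Cyp2e1, Rgn and Cyp1a2 lie between 0.10 and 0.61 on the x axis and at -1.41 or lower on the y axis, Gulo, Slc13a3 and Ahr lie at 1.44 or higher on the x axis and at -0.94 or higher on the y axis, and Cldn14 stands alone above 0.

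The supply side of P450 enzymes and their relatives was also read. Of 10 measured genes of P450 electron supply and heme synthesis, 1 rose in the Ctnnb1 tumours and 1 fell in the Ha-ras tumours, with median log2 fold changes of 0.12 and -0.31. The gene that fell was Cpox, a heme synthesis enzyme, by 1.17 (limma's adjusted p = 0.0018), while its 2 dimmer probe sets did not pass there (-1.07, adjusted p = 0.0808, and -0.68, adjusted p = 0.381, over all probe sets). Of 15 measured genes of the Cyp1, Cyp2a, Cyp2d, Cyp2e, Cyp2f and Cyp2j families, Cyp2e1 and Cyp1a2 included, 1 rose and 3 fell in the Ctnnb1 tumours, and 1 rose and 5 fell in the Ha-ras tumours. Cyp2f2, a periportal P450, fell by 4.19 in the Ctnnb1 tumours (limma's adjusted p = 0.00432). In the Ha-ras tumours it was -2.85 and did not pass (adjusted p = 0.0796 over all probe sets). Cyp2g1, Cyp2j5 and Cyp2d9 fell in the Ha-ras tumours, with log2 fold changes of -2.74, -1.75 and -1.41. Cyp2j5 fell in the Ctnnb1 tumours too, by 0.99 (limma's adjusted p = 0.016 over all probe sets), a call lost without PB control 4 or 5. Its difference between the tumour effects did not pass (0.76, adjusted p = 0.318 over all probe sets). Close relatives in the Cyp2 family may share probes, which leaves the gene behind such a signal uncertain. Of 13 measured hepatocyte transcription factors, 1 fell in the Ctnnb1 tumours, Cebpa by 0.92 (limma's adjusted p = 0.000529), and in the Ha-ras tumours 1 rose, Foxa3 by 1.07 ± 0.21 (adjusted p = 0.00222), and 2 fell, among them Nr1i3, the gene of CAR, by 2.46 (adjusted p = 3.58e-05).

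Markers of other cell types moved with the tumour groups in part. The 7 macrophage markers averaged 8.63 to 9.66 over the Ctnnb1 tumours, against 9.19 to 10.10 over the PB controls, and 7.25 to 9.55 over the Ha-ras tumours, against 9.26 to 9.82 over the untreated controls, and 1 fell in the Ctnnb1 tumours and 3 fell in the Ha-ras tumours. Of 6 stellate cell and fibroblast markers 3 fell in the Ctnnb1 tumours and 2 fell in the Ha-ras tumours, of 4 cholangiocyte markers 1 fell in the Ctnnb1 tumours, and no endothelial or lymphocyte marker passed in either. Of 5 hepatocyte markers 1 fell in the Ctnnb1 tumours and none passed in the Ha-ras tumours. Their part in the results for the 6 genes was not tested.

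The genes most like each of the 6 were found by Pearson's correlation of log2 values over the 16 arrays, which mixes differences between groups and within them and carries no test here. For Cyp2e1 they were Rnase4 (r = 0.977), Slco1b2 (0.966) and Aqp9 (0.965), and for Rgn they were Cyp27a1 (0.991), Ang (0.987) and Pon1 (0.978). For Cyp1a2 they were Tbx3 (0.984), Ldhd (0.973) and Gsta2 (0.968). For Gulo they were Ube2e2 (0.980), Nxpe2 (0.958) and Slc13a3 (0.952), and for Slc13a3 they were Nxpe2 (0.955), Kcnk1 (0.954) and Lect2 (0.953). For Ahr they were Gstm2 (0.978), Gstm4 (0.970) and Lhx6 (0.963). Among the 6 themselves the correlation was highest between Gulo and Slc13a3 (0.952) and between Cyp2e1 and Rgn (0.948), and lowest between Cyp2e1 and Ahr (0.570).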

How the data were processed

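Each of the 16 liver samples was hybridised to 1 Affymetrix array. The deposited values are log2 intensities per probe set that the authors made with RMA in R 2.14.1, per the submitters' processing notes, and they were used without further scaling, and precision is limited by how many arrays a group has. The platform annotation gave 1 gene symbol to 34945 of 45101 probe sets, several to 932 and none to 9160, and 64 are array controls. By Entrez identifier 34741 matched the RefSeq annotation of GRCm38.p6, used for names alone, with 0 renamed. For each of the 18193 genes the brightest probe set on average was kept.

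limma 3.58.1 in R 4.3.3 (statmod 1.5.0, data.table, version 1.17.8) fitted 1 coefficient per group over all 16 arrays, with eBayes and Benjamini-Hochberg adjustment over all genes, and a second fit over all probe sets with 1 symbol. The 5 comparisons were each kind of tumour with its own controls, the interaction of these, the 2 kinds of control, and the 2 kinds of tumour. The fit was tested on simulated data.

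The members, the 8 gene lists and the 8 marker lists were chosen with earlier results of these data known. Besides the members, a rule allowed 13 context genes, per list up to 4 passing genes with the largest change and up to 2 against the direction of most, and per member the 3 genes most correlated with it. Cyp2a5, by the rule, has no probe set of its own. Alternatives covered the arrays fitted, replicate blocks, dim genes, probe set choice, normalization, variance model, array weights, a 2-fold minimum, each array left out in turn, and a fit without PB control 6 and without Ctnnb1 tumours 6 and 7. Where a group was left with few arrays, the spread was pooled over all groups. No pair of arrays held identical values.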

Additional observations from a re-analysis of the deposited data

Results flagged for a closer look

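Within the 7 Ctnnb1 tumours, 3 of the 10 probe sets had a lowest tumour that stood apart from the rest by Dixon's criterion, which chance meets in about 1 in 20 groups. Cyp1a2 was 12.64 in tumour 6, against 13.78 or more in the other tumours. Gulo was 12.36 in tumour 6, against 13.29 or more. Ahr was 11.09 in tumour 5, against 11.51 or more.

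The change in Ctnnb1 tumours and the change in Ha-ras tumours differed, by limma's interaction term over all genes, for each of the 6 measured genes. The difference in log2 fold change was 1.51 for Cyp2e1, 3.23 for Cyp1a2, 2.25 for Gulo, 2.99 for Slc13a3, 2.60 for Rgn and 1.92 for Ahr. It was 3.46 for the second probe set of Slc13a3.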

How the results depend on the processing

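The number of the 6 genes that passed stayed at 6 for the difference between the tumour effects and at 6 between the tumours in every fit without a single array. It ranged over those fits from 3 to 4 in the Ctnnb1 comparison, from 3 to 4 in the Ha-ras comparison and from 0 to 1 between controls, where Ahr also passed with dim genes left out (adjusted p = 0.0463), quantile normalization (0.0387) and array weights (0.0252), 1 gene each. All genes that passed ranged from 1337 to 2219 (main count 2192) in the Ctnnb1 comparison, with 1337 without PB control 6, from 1698 to 3031 (main count 2462) in the Ha-ras comparison, from 648 to 1177 (main count 988) for the difference, with 648 without untreated control 1, from 3 to 68 (main count 39) between controls and from 1745 to 3301 (main count 2750) between tumours, with 1745 without Ha-ras tumour 1. Without PB control 6 and without Ctnnb1 tumours 6 and 7, 1383 passed in the Ctnnb1 comparison and 21 between controls, while 4, 4, 6, 0 and 6 of the 6 genes passed in the 5 comparisons. With array weights 3775 passed in the Ha-ras comparison, 1547 for the difference and 242 between controls, and with only the arrays compared 19 passed between controls. A 2-fold minimum left 596, 1086 and 898 in the Ctnnb1, Ha-ras and tumour comparisons, by its construction.

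Same-numbered tumours and controls did not deviate together throughout (correlations of deviations 0.13, 0.09 and -0.12 with PB and 0.03, 0.40 and 0.24 without; 1 of 6 and 4 of 6 arrays correlated best with their own number). With the replicate number as a fixed replicate block, which uses fewer arrays, 804 genes and 1 of the 6 (Ahr) passed in the Ctnnb1 comparison. Gulo was then 1.20 (adjusted p = 0.0711) and Slc13a3 1.71 (0.101), and the difference for Slc13a3 was 2.65 (0.0919). A random block (consensus correlation 0.0465) changed 1 call of the 6 genes, Gulo in the Ha-ras comparison (0.0496).

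Directions turned, the cause not tested, for Slc13a3 by its dimmest probe set in the Ctnnb1 comparison (-0.17), and between controls Slc13a3 by another dim probe set (-0.18), Ahr by its dim probe set (-0.020) and Gulo, which ranged from -0.43 to 0.031 over the fits without a single array, turning without PB control 4. Cyp1a1 in the Ctnnb1 comparison ranged from -1.33 to 1.18 over those fits, the highest without PB control 6, and was 0.78 with array weights and 1.23 with the 3 arrays left out. Gulo in the Ha-ras comparison also passed with only the arrays compared (0.00432), dim genes left out (0.0413), array weights (0.0128) and the 3 arrays left out (0.000528), and Rgn in the Ctnnb1 comparison with only the arrays compared (0.0337) and dim genes left out (0.0483). The part of low intensity in the results of the dim probe sets was not tested.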

Other observations

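The probe set annotated to both Cyp2a5 and Cyp2a4, coumarin and steroid hydroxylases of the Cyp2a family, is not assigned to either gene. It was 14.07 at the lowest, 14.33 at the median and 14.73 at the highest in the Ctnnb1 tumours, against 12.78, 13.38 and 13.81 in the PB controls. It was 14.51, 14.22 and 14.28 in the Ha-ras tumours, against 13.48, 12.42 and 13.55 in the untreated controls. Every tumour of either kind lay above every control of its own treatment, so that unlike the 6 genes with probe sets of their own, this signal was higher in the Ha-ras tumours too. In a fit over all probe sets other than array controls, the log2 fold change was 1.07 ± 0.23 in the Ctnnb1 comparison (limma's adjusted p = 0.0108) and 1.19 ± 0.28 in the Ha-ras comparison (adjusted p = 0.0115). The difference between them was -0.12 ± 0.36 (95% interval -0.89 to 0.64, adjusted p = 0.918). Between the tumours it was 0.05 ± 0.23 (adjusted p = 0.936), and between PB and untreated controls 0.18 ± 0.28 (adjusted p = 0.833). The tumour values lie near the top of the scale of these arrays.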
